A study of Mus musculus with 8 samples.

Results

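Among the probe sets of a mouse expression array, 120 gave bright signal in wild type 2-cell embryos and had no gene symbol in the platform's annotation table. They were chosen by a limit on signal: control probe sets were set aside, and a probe set without a symbol was kept where its mean linear signal over the 4 wild type arrays was 1000 or more. Of 45037 probe sets that were not controls, 9160 had no symbol, and 120 of those met the limit. Another 2228 probe sets met the same limit and had a symbol, of which 176 carried several, so the unsymbolled ones were 120 of 2348 bright probe sets. The annotation table held no row with an empty symbol and listed 0 of the 120, so they are probe sets that the table left out rather than probe sets known to lie outside genes. They are given by probe set name only, with no gene, role or position, and no probe sequences were at hand.

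Each of the 4 Brg1 mutant and 4 wild type samples pooled the RNA of 20 embryos at the 2-cell stage. The labels give those genotype words alone, and name no strain, allele, Cre driver or age of the mothers. The series title connects maternal BRG1 with activation of the zygotic genome. Signals were MAS5 values scaled by the authors to the same array average, 1 per probe set on a linear scale, and the precision of all values is limited by how many arrays there were. Nothing in the labels tells how the replicates were collected apart from each other, so a p-value speaks of the spread seen among these samples, which may be technical.

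At the 2-cell stage a mouse embryo still holds much RNA laid down in the oocyte, which is being degraded, while its own genome starts to be transcribed. BRG1, encoded by Smarca4, is the ATPase subunit of BAF-type chromatin remodelling complexes, and in such embryos it comes from the oocyte. A probe set is a group of short probes read together as 1 value, and the end of its name tells how specific the probes are: _at for a single transcript, _a_at for transcripts of 1 gene, _s_at for transcripts that may come from several genes, and _x_at where some probes also match other sequences.

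The arrays differed in ways that touch every value below. Smarca4 was lower in all 4 mutant samples on its brighter probe set, with signals of 387.5, 200.9, 273 and 291.3 in mutants 1 to 4 and 796, 632.1, 612.1 and 660.6 in wild type samples (log2 change -1.26, limma adjusted p = 0.0211). Its other probe set was not separated (log2 change 0.04, limma adjusted p = 0.963). The 13 oocyte and early embryo markers on the array were above background in every group. Mutants 3 and 4 stood apart by markers of granulosa and cumulus cells, the somatic cells around the oocyte: the summed signal of the 25 on the array was 22459 to 26275 in mutants 3 and 4 and 1639 to 2299 in mutants 1 and 2, against 1653 to 2316 in wild type, and 17 of the 25 were above every wild type array in both mutants 3 and 4. None of the 25 was listed at 0. Summed markers of blood and leukocytes were 639 to 683 in mutants 3 and 4 and 282 to 300.1 in mutants 1 and 2, against 240.1 to 289 in wild type. Of those 6 markers Cd52, a surface protein of lymphocytes, made the difference: it read 360.4 and 453.1 in mutants 3 and 4 and 22.9 and 24.5 in mutants 1 and 2, against 19.7 to 48.2 in wild type. The sums without it were 230.2 to 278 in mutants 3 and 4 and 259 to 276 in mutants 1 and 2, against 199 to 241 in wild type. By contrast, mutants 1 and 2 stood apart by hybridization spikes at 4.81 and 3.37 times the wild type mean and by a 99.9th percentile of signal of 12104 and 12658, against 5692 and 7397 in mutants 3 and 4 and 5777 to 7361 in wild type. Their summed oocyte and embryo markers were 62720 and 73935, against 29258 to 42285 in wild type. The 3'/5' ratio of actin was 12.9 and 15.0 in mutants 1 and 2 and 7.04 and 4.88 in mutants 3 and 4, against 16.3 to 21.1 in wild type. For Gapdh the ratio was 6.63 and 6.76 in mutants 1 and 2 and 6.94 and 7.33 in mutants 3 and 4. It was 8.58 to 10.1 in wild type. The part of these differences in the results was not tested, and in pooled embryos fewer cells of a type and less RNA per cell cannot be told apart. For that reason mutants 1 and 2 and mutants 3 and 4 are also given apart, each against the same 4 wild type arrays.

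The 120 unsymbolled probe sets held about as much of each array's signal in mutants as in wild type. Their sum was 3.36%, 3.07%, 2.94% and 2.70% of the total in mutants 1 to 4 and 3.12%, 3.01%, 3.08% and 2.98% in wild type samples 1 to 4. The symbolled bright probe sets held 54.3%, 54.6%, 43.0% and 41.3% in mutants and 49.9% to 54.5% in wild type. Both sets thus had their lowest shares on the arrays of mutants 3 and 4, and the unsymbolled ones had their highest on mutant 1. The median signal over the 120 was 1801, 1754, 1459 and 1547 in mutants 1 to 4, below the lowest wild type array, where the medians were 1979, 1844, 2006 and 1950. Each array held 80 to 106 of the 120 at 1000 or more in mutants and 110 to 117 in wild type, a difference the choice by wild type signal favours. No member was near background on any array: the lowest signal was 171.8, against a bound of at most 37.7 from the 95th percentile of 27 Bacillus control probe sets.

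In wild type the 120 ranged up to a mean of 8872, and the symbolled ones up to 9995, with medians over probe sets of 1938 and 1788. Wild type replicates varied alike in both sets, with a median coefficient of variation of 15.3% each. It ran from 1.0% for 1416728_at, whose wild type signals were 1416.1, 1392.5, 1406.2 and 1425.5, to 60.5% for 1456590_x_at. Both were picked after their values were seen. The second read 636.6, 895.3, 1340.4 and 1118.6 in mutants 1 to 4 and 785.2, 597.2, 2116.7 and 2267.7 in wild type samples 1 to 4. Its wild type arrays therefore fell into a low and a high pair, and the mutants read between the extremes of both. Such a division was common: wild type samples 1 and 2 were both above samples 3 and 4 for 31 of the 120 (25.8%) and both below for 41 (34.2%), against 21.9% and 42.3% of the symbolled bright probe sets. Over all tested probe sets the shares were 31.0% and 22.9%. Across the 120, wild type arrays correlated with each other at r = 0.770 to 0.974 on the log2 scale, mutant 1 with mutant 2 at 0.853 and mutant 3 with mutant 4 at 0.979. Mutants 1 and 2 correlated with mutants 3 and 4 at only 0.501 to 0.742. The points of these correlations are probe sets, which are not independent replicates.

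The 10 brightest unsymbolled probe sets were mostly brighter in mutants 1 and 2 than on any other array. The brightest, 1449436_s_at, read 22338.5, 21402.9, 8264.5 and 6058.4 in mutants 1 to 4 and 9251.4, 8999.9, 10412 and 6825.8 in wild type samples. Its signals in mutants 1 and 2 were thus above every wild type array, at 2.49 times the wild type level, while mutant 3 was within the wild type range and mutant 4 below it. Next, 1435643_x_at read 15570, 16988.2, 7241.4 and 5569.2 in mutants and 7719.6, 6946.2, 8709.1 and 5962.4 in wild type. The third, 1453723_x_at, read 17007.3, 16699.9, 6967.2 and 5129.9 in mutants and 6849.4, 7280.8, 8097.7 and 5451.2 in wild type. In both, mutants 1 and 2 were again above every wild type array, mutant 3 within the wild type range and mutant 4 below it. Levels were 2.24 and 2.46 times the wild type level in mutants 1 and 2 and 0.874 and 0.873 times in mutants 3 and 4. For 1417810_a_at the signals were 10910.3, 13238.5, 4742.6 and 3998.8 in mutants, against 5001.7, 5684.5, 4917.7 and 5168.6 in wild type. That probe set had the pairs on opposite sides of all wild type arrays, as had 1455816_a_at, with 10995.8, 11697.6, 4388.9 and 3572.8 in mutants and 5430.2, 5866.7, 6391.8 and 5004.3 in wild type. The weaker 1423807_a_at had them there too, with 6895.6, 5735.7, 3648.3 and 3183.5 in mutants and 5033.6, 5227.7, 5513.8 and 4153.9 in wild type. Of the 10, 7 had mutants 1 and 2 above every wild type array, against 20.2% of all tested probe sets. The seventh was 1427396_a_at, at 1.96 times the wild type level.

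The other 3 of the 10 did not have both mutants 1 and 2 above every wild type array. The signals of 1447327_at were 6551, 4361.4, 1921.4 and 1681.6 in mutants and 5698.8, 5582.5, 6066 and 4854.2 in wild type, so mutants 3 and 4 were 3.08-fold below wild type while mutants 1 and 2 spanned its range. For 1416624_a_at mutant 2 stood alone at the low end, with 6928, 3914.2, 7795 and 6419.6 in mutants and 7455.3, 7401.5, 5710.8 and 4960.9 in wild type. The last, 1423798_a_at, read 7655, 5696.8, 4570.3 and 3913.4 in mutants, against 5354.2, 5452.8, 5928.8 and 5308.8 in wild type, again with mutants 3 and 4 as the lowest arrays. None of the 10 passed the test over all samples (limma adjusted p from 0.232 to 0.937). The 3 brightest had log2 changes over all samples of 0.50, 0.48 and 0.55. With quantile normalization these were -0.07, -0.09 and -0.0064. With mutants 3 and 4 left out, 6 of the 10 passed as higher, 1449436_s_at among them (limma adjusted p = 0.00894), and with mutants 1 and 2 left out 3 passed as lower, 1447327_at among them (limma adjusted p = 7.32e-05). Over all tested probe sets, 3.6% passed as higher in the former fit and 23.2% as lower in the latter. Symbolled probe sets of the same brightness changed in the same directions: above a wild type mean of 5000, the median log2 change in mutants 1 and 2 was 1.0 over 9 unsymbolled and 0.66 over 146 symbolled probe sets, and in mutants 3 and 4 it was -0.29 and -0.44.

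**Figure D1:**
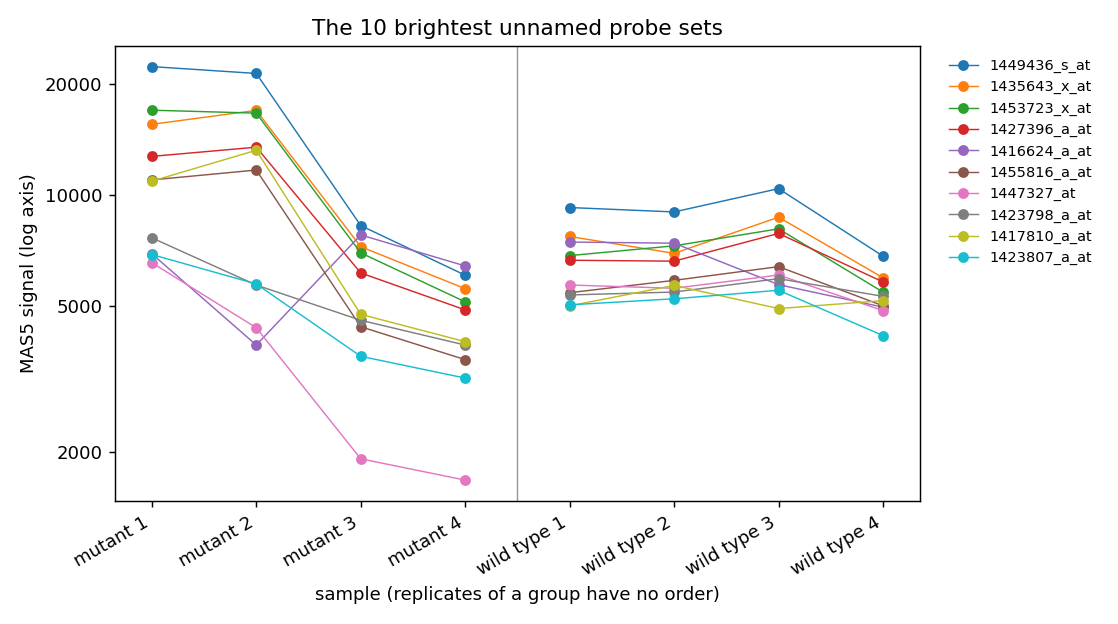
MAS5 signal (linear scale, log axis) of the 10 unsymbolled probe sets with the highest wild type mean, on the arrays of Brg1 mutants 1 to 4 and wild type samples 1 to 4, with 1 line per probe set and no order among replicates. For 7 of the 10, mutants 1 and 2 are above all wild type arrays, while 1447327_at drops to 1921.4 and 1681.6 in mutants 3 and 4.

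Over all 8 samples, 8 of the 120 were lower in Brg1 mutants and 0 were higher. Across the 22518 probe sets tested with limma at an adjusted p of 0.05, 807 were lower, or 3.58%, and 671 were higher, or 2.98%, together 6.56%. The 8 falls were 6.67% of the unsymbolled probe sets, and 201 of the symbolled bright ones fell (9.02%), with 14 higher (0.63%). At an unadjusted p of 0.05, 24 of the 120 were lower (20.0%) and 3 higher (2.50%), against 25.9% and 3.90% of the symbolled bright and 13.5% and 12% of all tested probe sets. The wild type arrays served both for the choice and for the comparison, and this favours falls. With the limit set on the mean of all 8 arrays instead, 121 unsymbolled probe sets qualified, of which 3 were lower and 6 higher, and 119 of 2188 symbolled ones were lower and 53 higher. With the limit set on the mutant mean, 8 unsymbolled probe sets were higher and 0 lower. The direction of the calls is therefore fixed in part by which arrays set the limit. Centring changed the split over all tested probe sets as well, to 421 higher and 1557 lower with medians aligned and to 496 and 1104 with 75th percentiles aligned, and it moved the lower count among the 120 to 15 and 11, with 0 higher in both.

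All 8 falls lay at a wild type mean under 2000, and none of their mutant signals reached the lowest wild type signal. The largest change was that of 1416835_s_at, which read 1117, 321.8, 434.6 and 556.7 in mutants 1 to 4 and 1830.2, 1491, 1804.1 and 1767.3 in wild type samples 1 to 4. Mutant 1 was the nearest to wild type, and the mean change was 3.16-fold (log2 change -1.66, SE 0.348, limma adjusted p = 0.0249). Signals of 1440752_at were 641, 640.6, 237.4 and 185.7 in mutants, against 1129.3, 1317.7, 1017.3 and 941.6 in wild type. Here mutants 3 and 4 were well below mutants 1 and 2, and the fall was 2.98-fold (log2 change -1.57, SE 0.409, limma adjusted p = 0.0469). For 1441774_at the values were 622.6, 771.9, 396.2 and 322.2 in mutants and 1206.8, 1098, 1835.4 and 1708.8 in wild type. Wild type samples 1 and 2 were closer to the mutants than samples 3 and 4 were, with a fall of 2.87-fold (log2 change -1.52, SE 0.319, limma adjusted p = 0.0250).

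The smallest adjusted p among the 120 was that of 1434267_at, which read 714.3, 908.5, 564.4 and 616.2 in mutants and 1876.7, 1371.3, 1938.2 and 2287.1 in wild type. It fell 2.67-fold (log2 change -1.41, SE 0.249, limma adjusted p = 0.0163), with a wide gap between the groups. In 1423883_at, wild type was tight at 1138.9, 1115.6, 1156.7 and 1305.7, and mutants read 651.6, 593.4, 333.9 and 307.6. Mutants 3 and 4 were again the lower pair, and the fall was 2.64-fold (log2 change -1.40, SE 0.285, limma adjusted p = 0.0229). Mutant signals of 1458374_at were 799.5, 615, 411.3 and 445.3, against 1386.2, 1098.6, 1626.9 and 1604.3 in wild type. Its fall was 2.58-fold (log2 change -1.37, SE 0.270, limma adjusted p = 0.0211), and mutants 3 and 4 were lower than mutants 1 and 2 here too.

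In the remaining pair of falls mutants 1 and 2 and mutants 3 and 4 had similar log2 changes. Mutant signals of 1452587_at were 859.4, 697, 716.8 and 819.1, against 1313.6, 1435.9, 1829.6 and 1462.8 in wild type. The log2 changes of 1452587_at were -0.95 in mutants 1 and 2 and -0.97 in mutants 3 and 4, and over all samples it fell 1.95-fold (limma adjusted p = 0.0285). The other, 1449839_at, read 801.8, 577.4, 598.8 and 595.2 in mutants and 1420.5, 1078.4, 1137.6 and 1046.9 in wild type. Mutant 1 lay above the other mutants. The fall was 1.82-fold (log2 change -0.87, SE 0.219, limma adjusted p = 0.0431), with log2 changes of -0.77 and -0.96 in the pairs.

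These calls rest on few arrays. With mutants 3 and 4 left out, whose granulosa and cumulus markers are given above, 4 of the 8 still passed as lower: 1434267_at, 1423883_at, 1458374_at and 1452587_at (limma adjusted p from 0.0263 to 0.0407). The other 4 then had adjusted p values from 0.0505 to 0.0842 in limma. With mutants 1 and 2 left out, all 8 passed. Leaving out 1 array at a time, all 8 passed without mutant 1 and without mutant 2, 2 passed without wild type sample 2, 1 passed without mutant 4, and 0 passed without wild type sample 1, 3 or 4 or without mutant 3. Over all tested probe sets, 807 were lower with every array in the fit. Without wild type samples 1 to 4 in turn, 49, 247, 101 and 33 were lower. Without mutants 1 to 4 in turn, 1447, 1515, 153 and 221 were lower, so the losses were not particular to these 8.

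**Figure D2:**
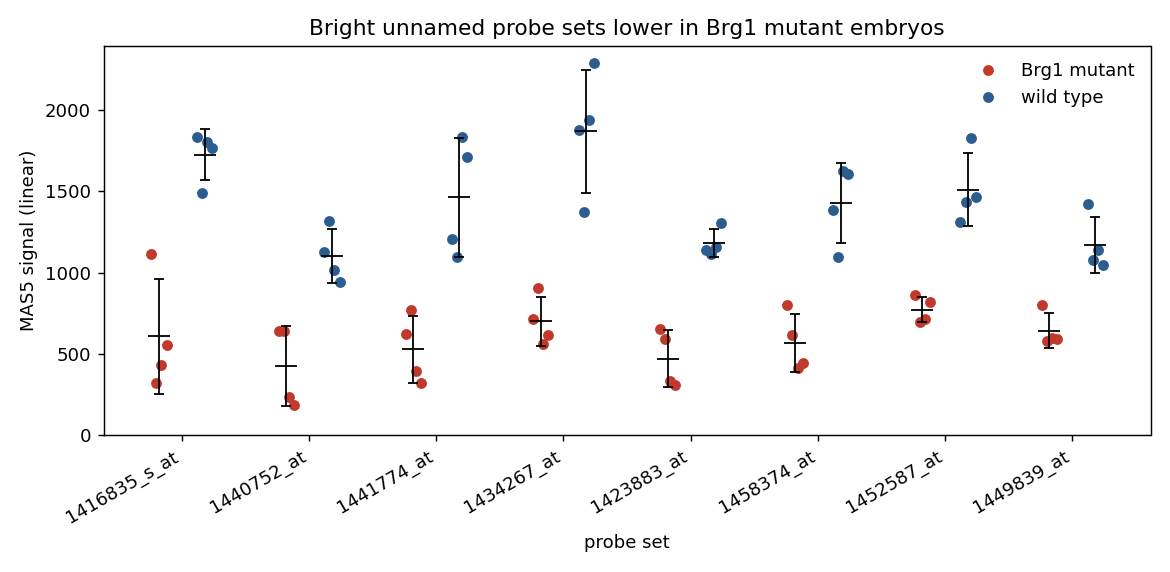
MAS5 signal (linear scale) of the 8 unsymbolled probe sets that passed as lower, side by side on 1 axis. For each, the 4 Brg1 mutant arrays are on the left and the 4 wild type arrays on the right, with a bar at each group mean with its SD. For every probe set the highest mutant signal is below the lowest wild type signal, and for 1440752_at mutants 3 and 4 read 237.4 and 185.7.

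Separation of the arrays was counted beside the test results. All 4 mutants were below every wild type array for 18 of the 120 (15.0%), against 18.9% of the symbolled bright probe sets and 9.67% of all tested. All 4 were above every wild type array for 4 (3.33%), against 2.74% of the symbolled bright ones and 7.83% of all tested. Of the 18 below, 13 had names ending in plain _at, against 46.7% of the 120 and 73.7% of all tested probe sets. Of the 18, 10 did not pass the test. Those 10 include 1419943_s_at, picked after its values were seen as the brightest of the 18, which read 3920.1, 2735.4, 2165 and 2205.5 in mutants and 4669.4, 4516.8, 5459.2 and 4550.3 in wild type (log2 change -0.84, limma adjusted p = 0.0715).

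The 4 above were 1424607_a_at, 1424609_a_at, 1432827_x_at and 1455571_x_at, and none of the 4 passed the test. They were named after their values were seen. Mutants read 5452.7, 6165.6, 4215.1 and 3576.3 for 1424607_a_at, against 2912.6, 3434.6, 1648.7 and 1672.7 in wild type. For 1424609_a_at mutants read 5468.6, 6400.7, 4295.9 and 4011.8, against 2974.2, 3534, 1540 and 1809.5 in wild type. These probe sets have nearby numbers and followed each other on all 8 arrays, with a ratio of the first over the second of 0.891 to 1.07 and r = 0.994 on the log2 scale. Their log2 changes of 1.05 and 1.09 had limma adjusted p values of 0.0702 and 0.0624. In both, the lower wild type pair was samples 3 and 4. The other 2 lay above wild type by less, with log2 changes of 0.40 and 0.42 that did not pass (limma adjusted p = 0.315 and 0.327). Among the 120 there were 5 pairs with numbers 1 or 2 apart, and the other 4 pairs had r from 0.241 to 0.588, so nearby numbers alone did not go with like values.

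The pairs of mutants were also counted apart. Mutants 1 and 2 were above every wild type array for 31 of the 120 (25.8%) and below for 25 (20.8%), against 24.0% and 24.5% of the symbolled bright probe sets and 20.2% and 15.1% of all tested. Mutants 3 and 4 were above for 19 (15.8%) and below for 66 (55.0%), against 12.9% and 60.1% of the symbolled bright ones and 24.9% and 34.5% of all tested. With mutants 3 and 4 left out of the fit, 12 of the 120 passed as higher (10%) and 7 as lower (5.83%), against 9.16% and 7.0% of the symbolled bright probe sets and 3.6% and 3.11% of all tested. With mutants 1 and 2 left out, 15 passed as higher and 51 as lower (42.5%), against 9.47% and 51.4% of the symbolled bright ones and 18.3% and 23.2% of all tested. A log2 change of at least 1 in size was found for 15 of the 120 in mutants 1 and 2 and for 30 (25%) in mutants 3 and 4, against 13.7% and 31.1% of the symbolled bright and 15% and 31.1% of all tested probe sets. Both pairs share the wild type arrays, so their changes are not independent readings.

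**Figure D3:**
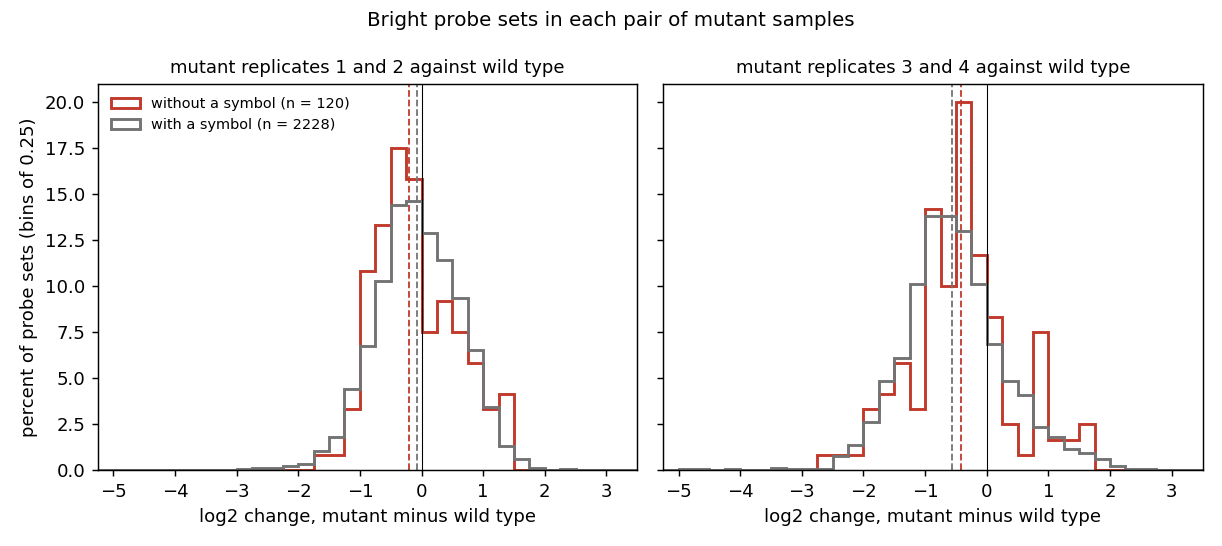
Share of probe sets (percent) by log2 change from the wild type mean, in mutants 1 and 2 (one panel) and in mutants 3 and 4 (the other), for the 120 unsymbolled and the 2228 symbolled bright probe sets, with dashed lines at the medians. The medians of the unsymbolled ones are -0.21 in mutants 1 and 2 and -0.42 in mutants 3 and 4, and those of the symbolled ones are -0.07 and -0.56.

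The largest group, 35 probe sets (29.2%), had mutants 3 and 4 below every wild type array and mutants 1 and 2 not separated from it, with a median log2 change of -0.84 in mutants 3 and 4 and -0.20 in mutants 1 and 2. The same pattern was found for 28.7% of the symbolled bright and 20.5% of all tested probe sets. Of the 35, 23 had names ending in plain _at, against 46.7% of the 120 and 73.7% of all tested probe sets. The largest fold among them was that of 1457103_at, which read 1002.4, 935.9, 171.8 and 216.4 in mutants and 1144.2, 846, 1514.3 and 1324 in wild type, so that mutants 3 and 4 were 6.12-fold below wild type. Another of the kind, 1459703_at, read 1768, 2994.6, 384.2 and 438.7 in mutants, against 2084.6, 1365.9, 1836.8 and 1895.3 in wild type. In both, mutants 1 and 2 overlapped wild type on at least 1 array. These 2 and 1443929_at were the members in which mutants 1 and 2 most exceeded mutants 3 and 4.

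Mutants 1 and 2 were above wild type, and mutants 3 and 4 were not, for 27 of the 120 (22.5%), against 21.3% of the symbolled bright and 12.3% of all tested probe sets. The median log2 change of those 27 was 0.78 in mutants 1 and 2, with folds of 1.08 to 2.76, and -0.29 in mutants 3 and 4. At the top of that range, 1443929_at read 3021, 3709.8, 681.1 and 695.6 in mutants and 894, 888, 1893.1 and 1447.4 in wild type. Both mutant pairs were outside the wild type range there, on opposite sides, while wild type samples 1 and 2 were themselves below samples 3 and 4. In 13 of the 27, or 10.8% of the 120, mutants 3 and 4 were below every wild type array, against 12.52% of the symbolled bright and 4.36% of all tested probe sets.

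Mutants 3 and 4 were above wild type, and mutants 1 and 2 were not, for 15 of the 120, against 10.2% of the symbolled bright and 17.1% of all tested probe sets. Their folds over wild type in mutants 3 and 4 ran from 1.19 to 3.27, with a median log2 change of 1.0, and in mutants 1 and 2 the median was -0.52. The largest was 1436699_x_at, with 1215.4, 803.5, 5046.5 and 4231.5 in mutants and 1528.1, 1505.8, 1316.8 and 1316.1 in wild type. Close to it, 1436760_a_at read 1562.3, 461.4, 4175.5 and 3856.6 in mutants, against 1660.4, 1361, 1179.3 and 1131.7 in wild type. For 1455319_x_at the signals were 1810.6, 851.5, 5773.9 and 4693.9 in mutants and 2045.8, 2013, 1672.9 and 1462.7 in wild type. Mutant 2 was the lowest array in all 3, and they were the members in which mutants 3 and 4 most exceeded mutants 1 and 2. Names ending in _x_at made up 7 of the 15, names in _a_at 6 and plain _at 2. Over the 120 the shares were 22.5%, 23.3% and 46.7%, and over all tested probe sets 6.88%, 12.9% and 73.7%. None of the 15 passed over all samples. The granulosa and cumulus markers given above moved with these 15 in the same arrays, and their part in the difference was not tested.

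Small mean changes over all 8 samples hid larger ones within pairs. The smallest in size was that of 1437610_x_at, at -0.01 on the log2 scale, although it read 2717.6, 1147.2, 8275.5 and 6297.6 in mutants, against 4274.5, 3578, 3297.9 and 3283.9 in wild type. Similarly, 1455662_x_at (log2 change 0.03) read 2607.7, 909.5, 6628.8 and 5325.3 in mutants, against 4012.8, 4042, 2230.4 and 2156.4 in wild type. The log2 changes in mutants 1 and 2 and in mutants 3 and 4 were -1.02 and 1.01 for 1437610_x_at. For 1455662_x_at they were -0.95 and 1.0, with mutant 1 inside the wild type range. Both were picked for a small mean change, so pair changes of like size and opposite sign follow from the choice. The third, 1450070_s_at (log2 change 0.01), read 2053.8, 3456.8, 1338.7 and 1549.6 in mutants, against 1941.2, 1433.1, 2186.9 and 2349.3 in wild type. Its pairs lay the other way round, at log2 changes of 0.45 and -0.43, and neither pair was separated from wild type. Adjusted p values of the 3 were at least 0.984 in limma.

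**Figure D4:**
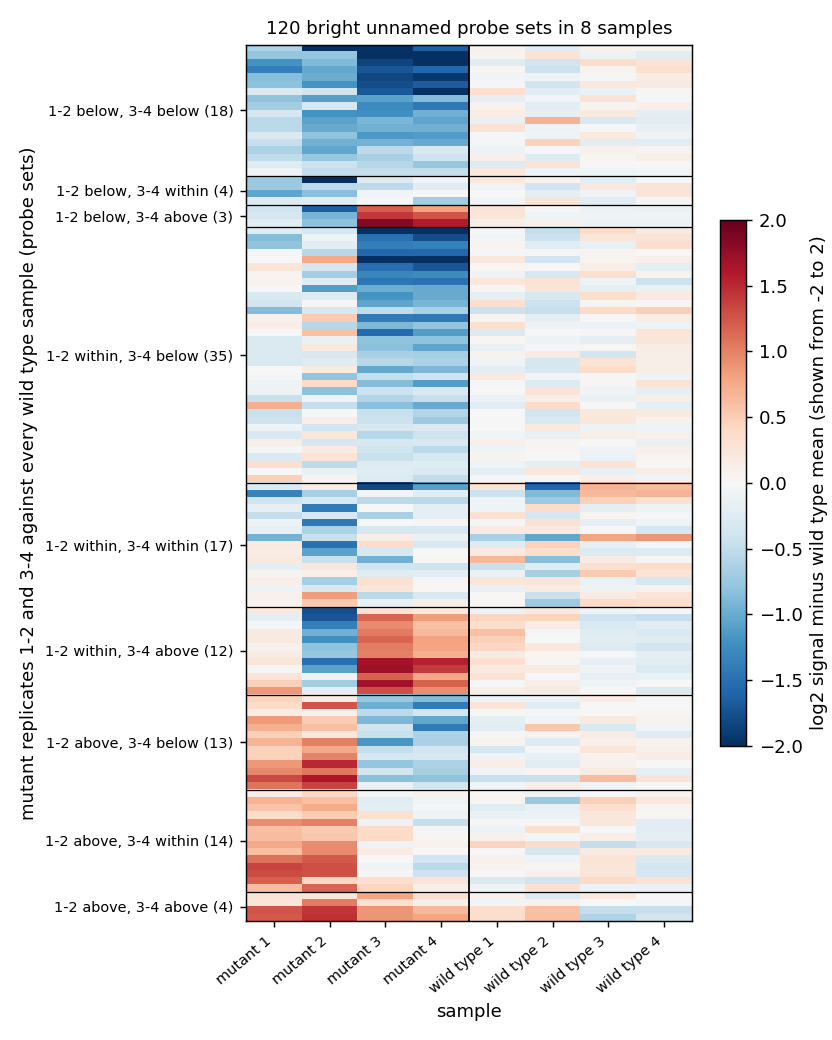
Log2 signal of the 120 unsymbolled probe sets on each array relative to that probe set's wild type mean (colour, log2 units), with probe sets as rows, grouped by whether each mutant pair was above, within or below all wild type arrays, and mutants 1 to 4 left of wild type samples 1 to 4. Rows above and below wild type differ between mutants 1 and 2 and mutants 3 and 4, and 18 rows are below all wild type arrays in every mutant.

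The median log2 change over the 120 was -0.28, with the middle of the distribution from -0.57 to 0.24 between quartiles and extremes of -1.66 and 1.09. For symbolled bright probe sets the median was -0.26, and for all tested probe sets -0.05. Changes below 0 made up 67.5% of the 120, 67.1% of the symbolled bright and 53.2% of all tested probe sets. A change of at least 1 log2 unit in size was less common in the 120 (9.17%) than in the symbolled bright (13.1%) and all tested probe sets (16.7%), which was not tested. When the limit was set on all 8 arrays, the medians were -0.15 without a symbol and -0.12 with one. By brightness, the median over all samples was -0.43 for the 65 unsymbolled probe sets with wild type means of 1000 to 2000, -0.12 for the 46 from 2000 to 5000 and 0.34 for the 9 above 5000. Symbolled probe sets had -0.33, -0.22 and 0.10 in the same ranges.

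Among the 120, _x_at names were more common than among symbolled bright probe sets, and _s_at names were less common. Plain _at names made up 56 of them (46.7%), _a_at 28 (23.3%), _x_at 27 (22.5%) and _s_at 9 (7.50%), against 51.9%, 19.9%, 16.0% and 12.2% of the symbolled bright and 73.7%, 12.9%, 6.88% and 6.51% of all tested probe sets. The median log2 change differed by ending: -0.49 for the plain _at ones, which held 7 of the 8 falls, -0.06 for _a_at, 0.01 for _s_at and 0.03 for _x_at. Symbolled bright probe sets had -0.37 for plain _at, -0.12 for _a_at, -0.24 for _s_at and 0.06 for _x_at. Their plain _at ones held 133 of their 201 falls. Median wild type signal of the unsymbolled ones was 1547 for plain _at and 2819 for _x_at, so the ending went with brightness.

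The limit of 1000 had no gap beside it. Just inside, 1415852_at had a wild type mean of 1013 and read 1102.2, 471.3, 794.7 and 1002.4 in mutants, against 1140.6, 1265.8, 821.6 and 823.9 in wild type. Also inside were 1417927_at, with means of 761 in mutants and 1021 in wild type, and 1452718_at, with 1057 in mutants and 1079.9 in wild type. Just outside were 1451168_a_at at a mean of 854 in mutants and 999 in wild type, 1441128_at at 1467 in mutants and 996 in wild type, and 1434814_x_at at 1430.2 in mutants and 984 in wild type. Those outside include probe sets brighter in mutants than in wild type, which a limit on wild type signal leaves out.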

How the data were processed

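Total RNA of 20 embryos per sample was extracted and labelled with a small sample protocol, per the labels. What the authors deposited was an intensity for each probe set, computed with MAS5 per the submitters' processing notes, which give no version here. All 8 arrays had the same mean of 150 after trimming 2% at each end, so they were not rescaled, and no arrays were identical. Of 45101 probe sets, 64 controls were set aside.

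A floor of 1 was put under the signals before log2. The brighter 50%, 22518 probe sets ranked by mean log2 over all 8 arrays (at least 5.25), were fitted with limma 3.58.1 in R 4.3.3 as a two-sided comparison with an intensity trend in eBayes, Benjamini-Hochberg adjustment over all of them and a threshold of 0.05. All 120 members passed this filter. The fit was tried on simulated signals with the wild type spread in both groups and the same shift in all 4 mutants. Such signals lack the difference between mutant pairs, so they do not check the fit under it. Folds are log2 changes turned to a linear scale, and a value for a pair of mutants is the mean log2 of both minus the wild type mean.

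Symbols came from the platform annotation. Members named are the 10 brightest, those that passed, the 3 nearest the limit on each side, the 3 with the largest difference between mutant pairs in each direction and the 3 with the smallest change, with further ones marked where named. The members, lists and this rule were chosen with earlier results of these data known, so no test of the list as a whole is given. Alternatives were other scalings, filters, limits and floors, array weights, no intensity trend, the replicate number as a block, and arrays left out. Samples with the same replicate number were not treated as paired in the main fit. Their deviations from the group means correlated at -0.18 to 0.02, which cannot tell whether they were collected together. With the replicate number as a block, 0 of the 8 falls passed.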

Additional observations from a re-analysis of the deposited data

Results flagged for a closer look

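In 2 of 60 groups of 4 arrays, 1 array lay far from the other 3 past the 95% limit of Dixon's test, where chance gives about 1 in 20. Mutant 1, at 801.8, was far above the other mutants for 1449839_at, with a gap of 0.889 of the group's log2 range. Wild type sample 2, at 1491, was below the other wild type samples for 1416835_s_at, with a gap of 0.8294 of the log2 range, barely past the test's 95% limit.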

How the results depend on the processing

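The count of unsymbolled probe sets lower in mutants (8 of 120) became 15 with median centring, 60 with array weights and 0 with the replicate block. Without mutants 1 and 2 it was 51. Other limits also changed the list, with 15 of 220 lower at a limit of 500 and 0 of 55 at 2000. The limit on all 8 arrays gave 3 of 121, and that on mutant arrays 0 of 120. All 8 falls had wild type means under 2000, so the count at that limit was fixed in advance. The count higher (0) became 18 with array weights, 12 without mutants 3 and 4 and 15 without mutants 1 and 2. At a limit of 500 it was 5 of 220. With the limit on all 8 arrays it was 6 of 121, and with it on mutant arrays 8 of 120. Leaving out 1 array in turn gave 0 to 16 lower and 0 to 2 higher. The median log2 change (-0.28) became -0.46 with median centring, -0.42 with 75th percentile centring, -0.44 with array weights, -0.0069 at a limit of 2000 and 0.15 with the limit on mutant arrays. That of symbolled bright probe sets (-0.26) became -0.56 with array weights and without mutants 1 and 2, and 0.073 with the limit on mutant arrays. Over all tested probe sets, 5099 were higher and 6387 lower with array weights, 642 and 589 with no filter, and 10 and 5 with the replicate block. The median log2 change of all tested probe sets (-0.05) became -0.22 with median centring and -0.19 with 75th percentile centring. Of the 8 falls, 6 passed with quantile normalization, with no filter and with no intensity trend, and 8 passed with centring, a pseudocount or the upper 30%. Named probe sets turned sign past the threshold in 5 cases: 1455816_a_at at -0.51 and 1437610_x_at at 1.0 without mutants 1 and 2, and 1443929_at at -0.85, 1437610_x_at at 0.96 and 1450070_s_at at -0.52 with array weights. Among the other settings of named probe sets, 444 kept direction and side of the threshold, 56 turned sign without passing under either setting, 63 lost the call and 23 gained one. The cause of these differences was not tested beyond what the fewer arrays or the other limits show by construction.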
